A study of Mus musculus with 4 samples.

Results

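The platelet-derived growth factor (PDGF) family of the mouse comprises the ligand genes Pdgfa, Pdgfb, Pdgfc and Pdgfd and the receptor genes Pdgfra and Pdgfrb. These 6 genes were found by symbol among the 24873 genes measured in cells sorted from the brain, and all 6 belonged to the 20485 genes whose average reached 10 normalized counts and which were tested. A normalized count is the number of reads on a gene divided by one factor per library. The expression of the 6 genes was compared between 2 control libraries and 2 tamoxifen libraries. Every mouse had the genotype that the labels write as Cdh5cre;Mgpflox/flox, described in the study as VE-cadherin cre/ERT2 Mgp fl/fl, so the control mice carried the same Cre and the same floxed alleles of Mgp, the gene of matrix Gla protein. The Cre is driven by the endothelial VE-cadherin (Cdh5) promoter and is activated by tamoxifen. The tamoxifen mice were given 75 mg/kg of the drug on each of 5 consecutive days, starting when they were 10 weeks old, the control mice received no tamoxifen, and the cells were taken on day 9. An effect of tamoxifen itself and an effect of Mgp deletion cannot be told apart in this design. The study describes the cells as CD31+CD45-, with each library an independent pool of cells from 3 mice, whereas the labels name the cells by a tdTomato reporter. The spread between the 2 libraries of a group is thus a spread between pools.

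PDGF ligands are secreted dimers that bring receptor tyrosine kinases together at the surface of the receiving cell. PDGF-A and PDGF-C act mainly on the α receptor, PDGF-D acts mainly on the β receptor, and PDGF-B binds both. PDGF-A and PDGF-B are processed inside the cell, whereas PDGF-C and PDGF-D carry a CUB domain that proteases remove outside the cell. In brain vessels, PDGF-B of the endothelium recruits pericytes, which carry the β receptor, while the α receptor is known from oligodendrocyte precursors and fibroblasts.

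The libraries held 37475154 and 41025014 reads on genes in the control group and 35387438 and 49799321 in the tamoxifen group. Mgp, the targeted gene, had 1094 and 1352 normalized counts in control libraries and 945 and 909 in tamoxifen libraries. Its log2 fold change of -0.39 did not pass the test (SE 0.18, limma adjusted p = 0.0986), and its direction turned to 0.08 when the libraries were rescaled to equal totals. Endothelial markers, summed over 13 genes such as Pecam1 and Cdh5, reached 1193860 and 1207680 normalized counts in control libraries and 207744 and 105122 in tamoxifen libraries. Endothelial RNA was thus present in both groups, and its summed level was 7.68-fold lower in the tamoxifen group. In these bulk samples, fewer cells of a type and less RNA per cell cannot be told apart.

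In the annotation of build GRCm39, Pdgfa lies on chromosome 5 from 138961758 to 138983435 on the minus strand. Pdgfra lies on the same chromosome from 75311994 to 75358876 on the plus strand, 376699 bases before Kit. Pdgfb spans chromosome 15 from 79880009 to 79899181 on the minus strand. Pdgfc and Pdgfd, the ligands with a CUB domain, occupy long loci on the plus strand, namely chromosome 3 from 80943668 to 81121473 and chromosome 9 from 6168240 to 6379265. Counts were taken over whole genes. Exons of Pdgfa share 2552 of their 6761 bases with the antisense transcript 6330403L08Rik, and since the strand setting of the counting is not stated, reads of the 2 genes cannot be told apart there. Smaller antisense overlaps cover 668 of 6699 exonic bases of Pdgfc and 456 and 168 of 12310 exonic bases of Pdgfra, from 2 transcripts.

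The promoters are shown as a description. Pdgfd was the only matched gene that fell, so genes that rose and genes that fell cannot be compared as groups. Each sequence is the RefSeq stretch of 250 bases before a transcription start, read 5′ to 3′ on the strand of the gene, in build GRCm38.p6. Promoters of 4 of the 6 genes were matched, with 2 starts for Pdgfa, and Pdgfb and Pdgfrb were not. Capitals mark a GC box (GGGCGG, or CCGCCC on the other strand) or a TATA box (TATAAA, or TTTATA on the other strand), motifs that do not overlap.
Pdgfc, chr3:81036166-81036415, plus strand: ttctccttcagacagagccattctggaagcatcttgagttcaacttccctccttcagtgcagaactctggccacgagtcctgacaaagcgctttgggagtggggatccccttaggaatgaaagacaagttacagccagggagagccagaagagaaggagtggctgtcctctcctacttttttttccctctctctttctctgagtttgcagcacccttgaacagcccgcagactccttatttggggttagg
Pdgfra, chr5:75152001-75152250, plus strand: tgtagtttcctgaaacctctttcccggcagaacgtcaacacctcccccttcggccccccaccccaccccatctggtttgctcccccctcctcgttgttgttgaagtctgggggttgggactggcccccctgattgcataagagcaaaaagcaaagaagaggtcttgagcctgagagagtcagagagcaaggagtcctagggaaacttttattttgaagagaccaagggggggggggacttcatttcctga
Pdgfd, chr9:6168236-6168485, plus strand: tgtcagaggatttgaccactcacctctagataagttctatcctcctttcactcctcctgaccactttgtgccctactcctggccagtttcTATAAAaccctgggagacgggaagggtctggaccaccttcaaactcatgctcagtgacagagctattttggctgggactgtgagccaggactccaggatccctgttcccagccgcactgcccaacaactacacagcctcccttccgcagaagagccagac
Pdgfa, chr5:138994945-138995194, minus strand: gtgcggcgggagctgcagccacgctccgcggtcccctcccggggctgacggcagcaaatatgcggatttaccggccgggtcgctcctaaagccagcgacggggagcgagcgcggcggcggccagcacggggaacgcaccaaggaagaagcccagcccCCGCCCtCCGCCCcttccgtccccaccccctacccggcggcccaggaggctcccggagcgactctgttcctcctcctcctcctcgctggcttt
The Pdgfa stretch held 28 CpG dinucleotides, 72.4% G and C, and 2 GC boxes. The other Pdgfa start had 19 CpG dinucleotides and 1 GC box. In contrast, the stretches of Pdgfc, Pdgfd and Pdgfra held 3, 3 and 4 CpG dinucleotides and no GC box. Across all 32851 promoters of the table the median was 6 CpG dinucleotides, 32.7% held a GC box and 12.4% held a TATA box. The single TATA box among the 4 genes was that of Pdgfd. These matches describe letters in one window and say nothing about bound factors.

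Tamoxifen libraries held more Pdgfc and Pdgfra and less Pdgfb and Pdgfd than control libraries, whereas Pdgfa and Pdgfrb did not pass the test. The changes were large. Pdgfc was 43.3-fold and Pdgfra 12.6-fold higher, and Pdgfb was 8.71-fold and Pdgfd 5.56-fold lower, as ratios of the group means. A gene was called where its adjusted p was below 0.05 and its log2 fold change beyond 1 in either direction, by limma on log2(normalized count + 1) with Benjamini-Hochberg adjustment over all tested genes. By this rule 2 of the 6 genes were called higher and 2 lower, while 44.7% of all tested genes were called, 28.6% higher and 16.0% lower. The adjusted p alone was under 0.05 for the same 4 members and for 58.9% of all tested genes. The groups did not overlap for 5 of the 6 genes, compared with 82.3% of all tested genes. A call was thus common in this comparison, and the number of members called is read as a description. The median log2 fold change was 0.66 over the 6 genes and 0.05 over all tested genes. The median of the 6 lies between Pdgfa and Pdgfrb, which did not pass the test, and describes no shared direction.

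**Figure D1:**
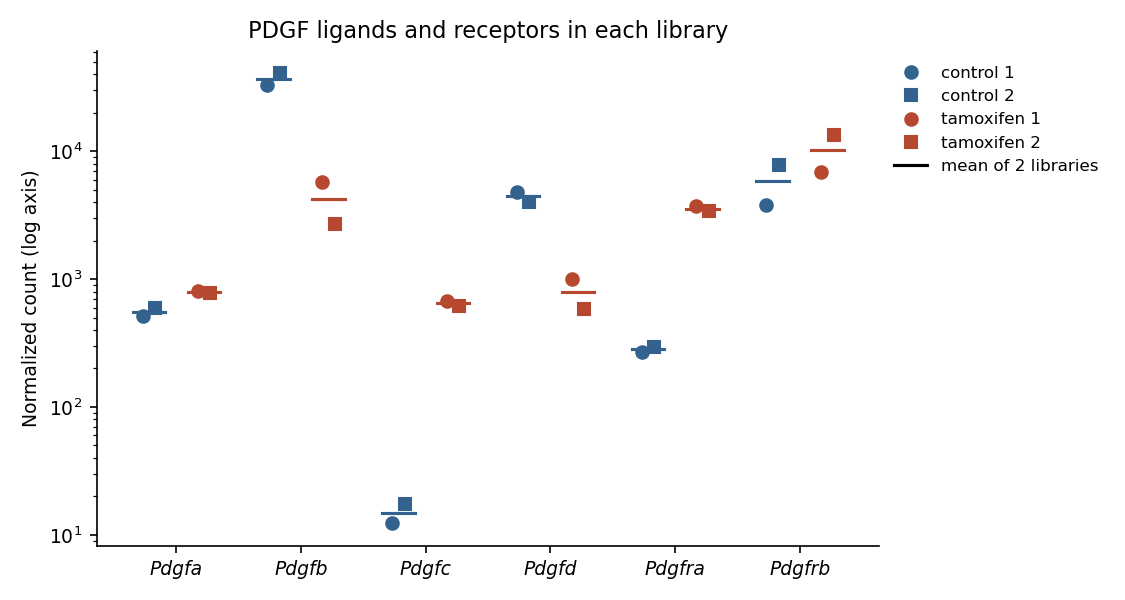
Normalized counts of the 6 PDGF genes in each library on a log axis, with circles for the first and squares for the second library of each group and lines for the means of 2 libraries. The groups lie apart for every gene except Pdgfrb, and control Pdgfc sits lowest at 12.3 and 17.5 normalized counts.

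Pdgfb, the ligand with which endothelial cells attract pericytes, was the most abundant member in the control libraries. It had 32749 and 40822 normalized counts in control libraries and 5744 and 2702 in tamoxifen libraries. Both tamoxifen libraries lay far below both control libraries, although they differed from each other 2.13-fold. Pdgfb fell from 36785 ± 5709 to 4223 ± 2151 normalized counts (SD, n = 2 each). The log2 fold change was -3.21 (SE 0.33, limma adjusted p = 0.000157). Pdgfb appears among the endothelial genes in the study's own heatmap of these libraries, so its direction here is not independent evidence.

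Pdgfd, the ligand of the β receptor that needs cleavage, was also lower. It had 4832 and 4045 normalized counts in control libraries and 1010.1 and 586 in tamoxifen libraries, with no overlap between the groups. The means were 4439 ± 557 and 798 ± 300.0 normalized counts (SD, n = 2 each), with a log2 fold change of -2.52 (SE 0.26, limma adjusted p = 0.000148). As for Pdgfb, the second tamoxifen library was the lowest of the 4, and it was also the library with the lowest sum of endothelial markers.

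Pdgfc, the ligand of the α receptor that needs cleavage, was close to absent from the control libraries. It had 12.3 and 17.5 normalized counts there and 679.5 and 613 in the tamoxifen libraries. The control values rested on 9 and 14 reads, for which exact 95% Poisson intervals run from 4.12 to 17.1 and from 7.65 to 23.5 reads. The tamoxifen values rested on 627 and 853 reads, with intervals from 579 to 678 and from 797 to 912 reads. The intervals cover counting error only, and those of the 2 groups lie far apart. Pdgfc rose from 14.9 ± 3.67 to 646 ± 46.9 normalized counts (SD, n = 2 each), with a log2 fold change of 5.36 (SE 0.41, limma adjusted p = 4.75e-05).

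Pdgfa, the ligand of the α receptor that needs no cleavage outside the cell, differed least among the ligands. It had 515 and 599.5 normalized counts in control libraries and 810 and 781 in tamoxifen libraries. Both tamoxifen libraries were above both control libraries, but the log2 fold change of 0.52 did not pass the test (SE 0.20, limma adjusted p = 0.0524). The value depended on the scaling of the libraries. It was 0.99 after rescaling to equal totals (adjusted p = 0.00383) and 0.02 after quantile normalization (adjusted p = 0.914). These scalings moved the median of all tested genes as well, from 0.05 to 0.52 and to -0.20. Relative to that median, Pdgfa stood 0.46 higher on the log2 scale as deposited, 0.47 higher with equal totals and 0.22 higher after quantile normalization. The antisense transcript 6330403L08Rik, which shares bases with Pdgfa, had 122 and 133 normalized counts in the control and 188 and 153 in the tamoxifen libraries, and its part in the Pdgfa counts was not tested.

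Of the receptors, Pdgfra passed the test and Pdgfrb did not. Pdgfra, the α receptor, had 271 and 295 normalized counts in control libraries and 3733 and 3405 in tamoxifen libraries. The 2 libraries of each group lay close together and the groups were far apart. Pdgfra rose from 283 ± 17.1 to 3569 ± 232 normalized counts (SD, n = 2 each), and the log2 fold change of 3.65 had the smallest standard error of the 6 genes (SE 0.17, limma adjusted p = 7.90e-06).

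The gene of the β receptor, Pdgfrb, lies on chromosome 18 from 61178212 to 61218133 on the plus strand of GRCm39, 11580 bases before Csf1r, which encodes another receptor of the same class. It had 3811 and 7858 normalized counts in control libraries and 6844 and 13475 in tamoxifen libraries. The libraries differed within each group, 2.06-fold in the control and 1.97-fold in the tamoxifen group, and the groups overlapped. The means of 5834 ± 2862 and 10159.6 ± 4689 normalized counts (SD, n = 2 each) gave a log2 fold change of 0.81, which did not pass the test (SE 0.40, limma adjusted p = 0.113). Single libraries decided this value. Without the first control library it was 0.29 and without the second tamoxifen library 0.32. Without the second control library it was 1.33 and passed the test (adjusted p = 0.000779), and without the first tamoxifen library it was 1.30. It also passed after rescaling to equal totals, at 1.28 (adjusted p = 0.0442), and after quantile normalization, at 1.29 (adjusted p = 0.0392). Relative to the median of all genes, Pdgfrb stood 0.76 higher as deposited and with equal totals and 1.49 higher after quantile normalization.

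**Figure D2:**
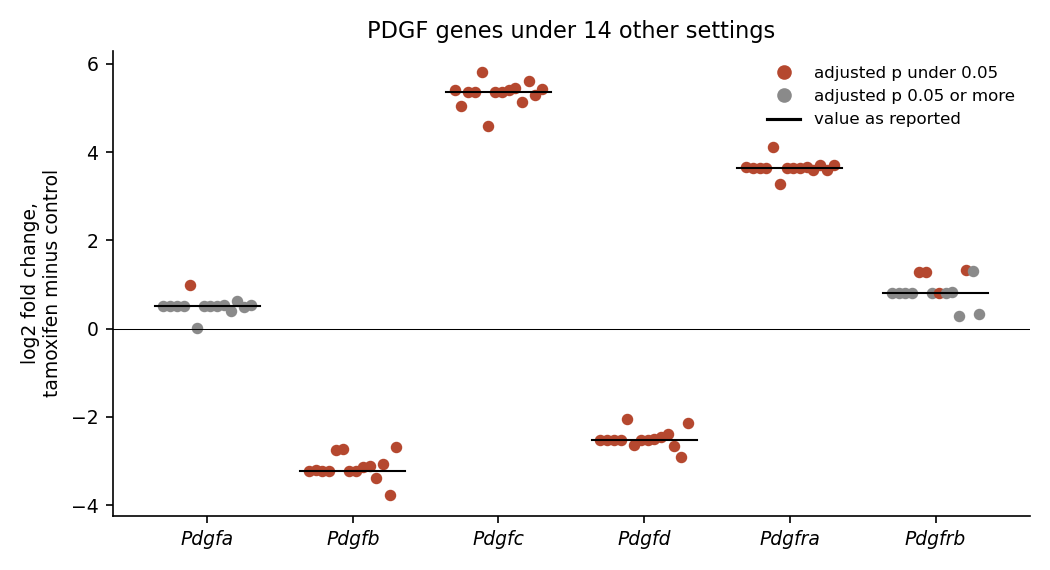
Log2 fold changes of the 6 genes (tamoxifen minus control) as reported, shown as lines, and under 14 other settings, shown as points that are red where the adjusted p was under 0.05 and grey otherwise. The points of Pdgfb, Pdgfc, Pdgfd and Pdgfra are all red and on one side of 0, whereas those of Pdgfa and Pdgfrb are mostly grey.

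The 14 other settings covered the pseudocount, the filter, the scaling, the variance model, the test and each library left out. Pdgfb, Pdgfc, Pdgfd and Pdgfra kept their direction and an adjusted p under 0.05 in all 14, with the highest adjusted p between 0.0272 for Pdgfra and 0.0395 for Pdgfc. When each library was left out in turn, the log2 fold change ranged from -3.76 to -2.67 for Pdgfb, from -2.91 to -2.13 for Pdgfd, from 5.13 to 5.60 for Pdgfc and from 3.58 to 3.72 for Pdgfra. Pdgfa passed in 1 of the 14 settings and Pdgfrb in 4 of the 14.

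Levels of different genes were compared per kilobase of the canonical transcript. In the control libraries the order of the mean levels was Pdgfb (11805 normalized counts per kb), Pdgfd (1134), Pdgfrb (1079), Pdgfa (205), Pdgfra (43.0) and Pdgfc (4.17). Pdgfd and Pdgfrb did not differ beyond their spread, since the Pdgfrb libraries lay at 705 and 1453 and the Pdgfd libraries at 1235 and 1034 normalized counts per kb. In the tamoxifen libraries the order was Pdgfrb (1879), Pdgfb (1355), Pdgfra (541), Pdgfa (293), Pdgfd (204) and Pdgfc (181). Here Pdgfb with 1843 and 867 normalized counts per kb lay within or below the range of Pdgfrb, which had 1266 and 2492. Pdgfd with 258 and 149.7 overlapped Pdgfc, which had 190.03 and 171. With the length of all exons in place of the canonical transcript, Pdgfd and Pdgfrb changed places in the control group, and Pdgfc and Pdgfd in the tamoxifen group.

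Among the ligands, the share of Pdgfb in the summed level per kb was 88.0% and 91.2% in control libraries and 71.2% and 58.7% in tamoxifen libraries. Pdgfa made up 1.59% and 1.54% of the ligand sum in control libraries and 11.5% and 19.5% in tamoxifen libraries, although its own level had not passed the test. Pdgfc went from 0.0289% and 0.0341% to 7.34% and 11.6%. The share of Pdgfd was 10.3% and 7.20% in control libraries and 9.97% and 10.1% in tamoxifen libraries, which overlap. The sum itself was 11938 and 14360.3 normalized counts per kb in control libraries and 2589.8 and 1476 in tamoxifen libraries. Among the receptors, Pdgfra accounted for 5.51% and 2.99% in the control libraries and for 30.9% and 17.2% in the tamoxifen libraries.

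**Figure D3:**
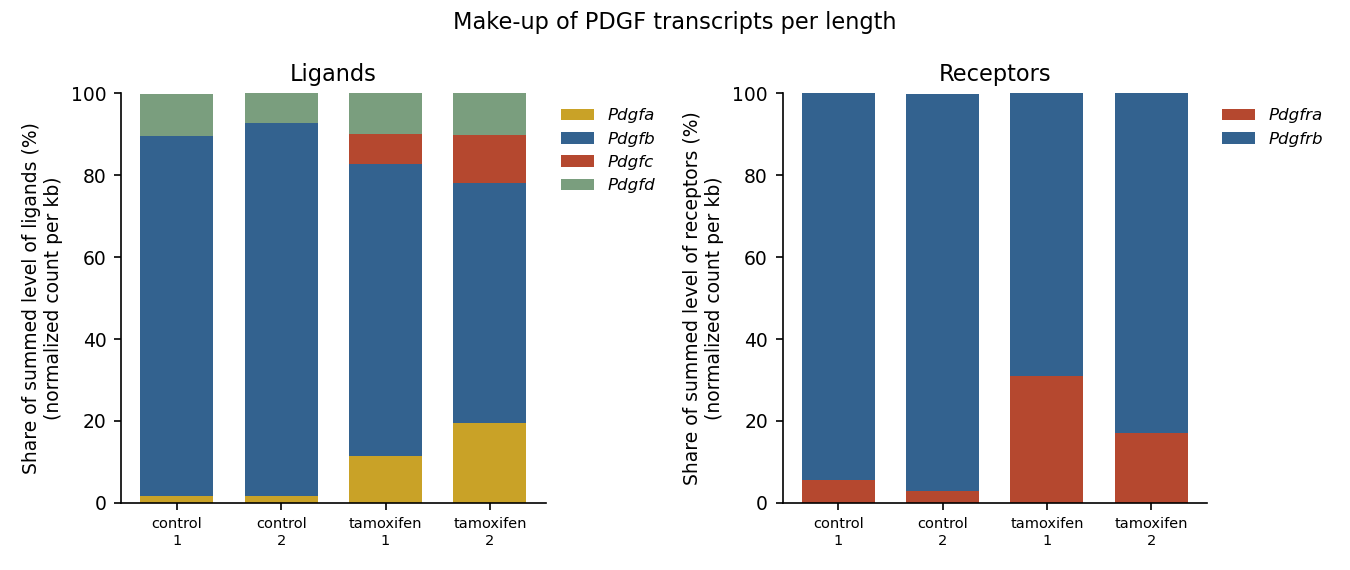
Stacked bars show the share (%) of each gene in the summed level per kb of the ligands (left) and of the receptors (right) in each of the 4 libraries. Pdgfb fills most of every ligand bar, with the Pdgfa and Pdgfc parts larger in the tamoxifen libraries, and the Pdgfra part of the receptor bars is larger there too.

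Ratios of 2 members within one library were formed after adding 1 to each normalized count. They depend little on the one factor by which a library is divided, except for low values such as control Pdgfc. The log2 ratio of Pdgfra to Pdgfrb was -3.81 and -4.73 in control libraries and -0.87 and -1.98 in tamoxifen libraries, a difference of 2.84. The log2 ratio of Pdgfa to Pdgfb was -5.99 and -6.09 in the control and -2.83 and -1.79 in the tamoxifen libraries, a difference of 3.73. For the cleaved ligands, the log2 ratio of Pdgfc to Pdgfd moved from -8.50 and -7.77 to -0.57 and 0.07, a difference of 7.88. That difference was 7.93 with 0.5 added and 7.56 with 5 added. The log2 ratio of Pdgfb to Pdgfrb, the ligand and receptor of endothelium and pericytes, was 3.10 and 2.38 in control libraries and -0.25 and -2.32 in tamoxifen libraries, a difference of -4.03. The groups did not overlap in any of these 4 ratios. Each ratio includes a member already called, and taken singly 82.3% of all tested genes did not overlap, so this adds no separate support. Each ratio had an exact two-sided permutation p of 0.333, the smallest that 2 libraries against 2 can give.

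The genes around the family were described from 4 lists of 47 genes in all, of which 22 were called, a share near the 44.7% of all tested genes. The calls of each list are likewise read beside the 28.6% of all tested genes called higher and the 16.0% called lower, and nothing is called particular to a list. Left-out libraries mattered for this count, which fell with either tamoxifen library left out. The count over all tested genes fell then too, and later counts from such fits are read beside that. In ligand processing and co-receptors, 4 of 11 genes were called higher and 5 lower, with a median log2 fold change of -0.44. Pcsk6, a proprotein convertase, had 99.99 and 163 normalized counts in control libraries and 2163 and 1929 in tamoxifen libraries (log2 fold change 3.99). Lrp1, an endocytic receptor that associates with the β receptor, went from 3276 and 4553 to 25442 and 34711 (log2 fold change 2.94). Both rose with no overlap between the groups. Nrp1, a co-receptor for several growth factors, fell from 31939 and 29073 to 6452 and 4791 (log2 fold change -2.45). The proteases that act on PDGF-C and PDGF-D did not move one way. Plat, tissue plasminogen activator, which cleaves PDGF-C, fell from 22640.3 and 19999 to 6309.9 and 5402 normalized counts (log2 fold change -1.87), while Plau, urokinase, which cleaves PDGF-D, rose (log2 fold change 2.73). St14, the membrane protease matriptase, was also called higher (1.99), and the convertases Furin (-1.32) and Pcsk7 (-1.47) and the matrix protein Sparc (-1.46) were called lower. Plau, St14, Furin, Pcsk7 and Sparc were named after their values had been seen.

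In receptor-proximal signaling, 1 of 19 genes was called higher and 4 lower, and by the adjusted p alone 2 were higher and 13 lower, where 33.4% and 25.5% of all tested genes were. The median log2 fold change was -0.64. Stat5a, a transcription factor downstream of the receptors, rose from 234 and 332 to 676 and 623 normalized counts (log2 fold change 1.22). Plcg1, the phospholipase that docks on activated receptors, fell from 34969 and 35269.9 to 10193 and 8400.3 (log2 fold change -1.92). The count of 5 called genes was 3 after quantile normalization and 2 without the second tamoxifen library. Among the 10 negative regulators, 2 were called higher and 2 lower, with a median of 0.02. Spry2, an inhibitor of receptor tyrosine kinase signaling, rose from 671 and 951 to 3898 and 4331 normalized counts (log2 fold change 2.36), whereas its relative Spry1 fell from 3253 and 2298 to 1003 and 886 (log2 fold change -1.54). Acp1, a phosphatase, was higher (log2 fold change 1.16) and Dusp6, a phosphatase of ERK kinases, lower (log2 fold change -1.46). With either tamoxifen library left out, only 1 of the negative regulators was called.

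The other receptors of the same class and their ligands gave 2 genes called higher and 2 called lower of 7, with a median log2 fold change of 0.60. Kit, the neighbour of Pdgfra, had 2315 and 1961 normalized counts in control libraries and 4953 and 4055 in tamoxifen libraries (log2 fold change 1.07), while its ligand gene Kitl fell from 30394 and 21411 to 5981 and 3727 (log2 fold change -2.43). Kit is shown in the study's heatmap of these libraries, so its direction is not independent evidence. Csf1r, the neighbour of Pdgfrb, had a log2 fold change of 0.77 (SE 0.29, limma adjusted p = 0.0499). Flt3, the receptor called higher with Kit, had at most 3 reads in each control library and 114 and 66.1 normalized counts in the tamoxifen libraries, and its ligand gene Flt3l was lower (log2 fold change -2.30). Only 2 of the 7 genes were called when either tamoxifen library was left out. With equal totals the medians of these 4 lists were 0.03, -0.17, 0.49 and 1.07, and after quantile normalization they were -0.30, -0.34, 0.04 and -0.15, in the order in which the lists were described. The first and the last of them changed sign.

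**Figure D4:**
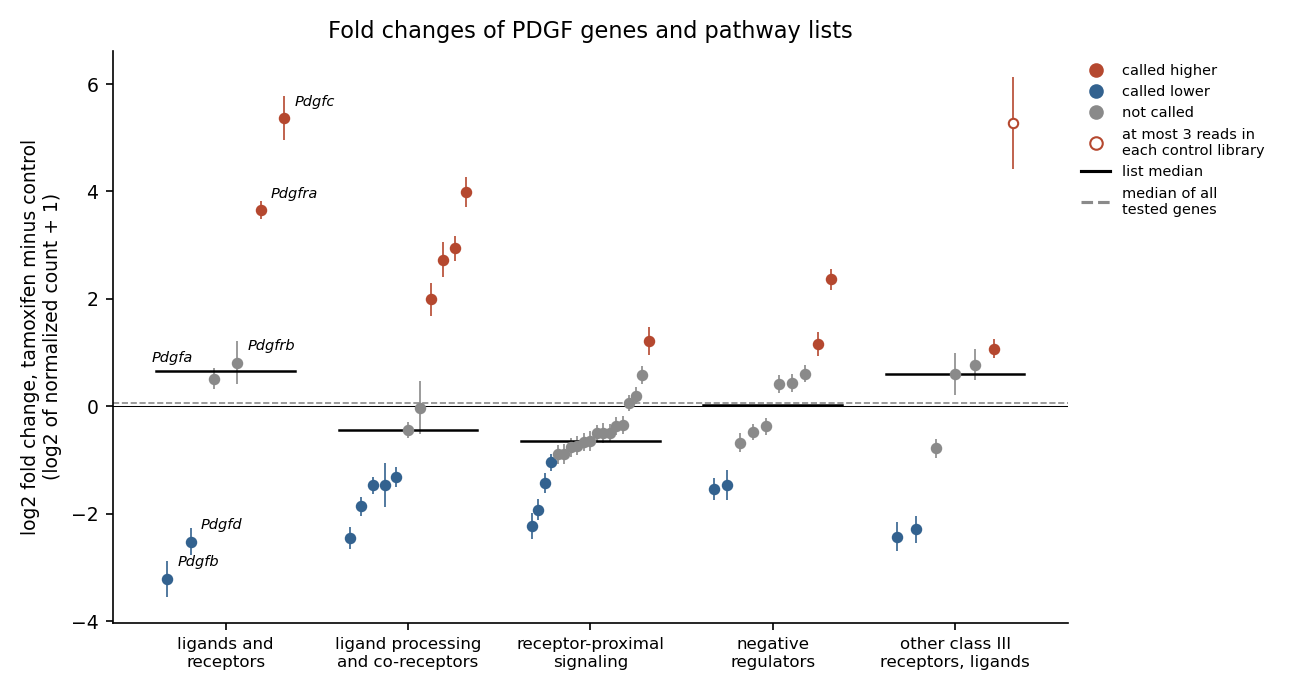
Log2 fold changes (tamoxifen minus control, error bars are standard errors) of the 6 PDGF genes and of 4 pathway lists, colored by call, with solid lines for list medians and a dashed line for the median of 0.05 over all tested genes. Each list holds genes on both sides of 0, and Flt3, the open symbol, had at most 3 reads in each control library.

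Marker lists of the cells known to make or receive PDGF are set beside these genes, and their part in the results was not tested. Their calls too stand beside 28.6% of all tested genes called higher and 16.0% called lower. All 13 endothelial markers were called lower, with a median log2 fold change of -2.95, close to the -3.21 of Pdgfb and the -2.52 of Pdgfd. The endothelial markers with the highest levels, Flt1 and Kdr, had log2 fold changes of -3.33 and -2.75. Within a library, the log2 level of Pdgfb minus the median of the endothelial markers was -0.89 and -0.59 in the control and -0.96 and -1.22 in the tamoxifen libraries. For Pdgfd this difference was -3.65 and -3.93 in the control and -3.47 and -3.43 in the tamoxifen libraries. A gene with a log2 fold change near the median of the markers nearly keeps this difference, so these values restate the fold changes. Of the 12 arterial and tip cell markers, where Pdgfb is known to be strongest, 8 were called lower and none higher, with a median of -1.71 and log2 fold changes of -2.81 for Dll4 and -2.93 for Sox17. Pdgfb stood above their median by 2.48 and 2.91 on the log2 scale in control libraries and by 1.53 and 1.07 in tamoxifen libraries. For Pdgfd the difference from this median was -0.28 and -0.42 in the control and -0.98 and -1.14 in the tamoxifen libraries. Set against the smooth muscle markers, Pdgfd went from 3.51 and 2.11 in the control to 0.44 and -1.28 in the tamoxifen libraries.

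Pdgfrb is set here beside the pericyte, smooth muscle and fibroblast markers. The sum of the pericyte markers over 12 genes was 34441 and 63411 normalized counts in control libraries and 48657 and 91095 in tamoxifen libraries, so that it differed 1.84-fold and 1.87-fold within the groups, beside 2.06-fold and 1.97-fold for Pdgfrb. The log2 level of Pdgfrb minus the median of the pericyte markers was 1.90 and 1.82 in the control and 1.54 and 1.67 in the tamoxifen libraries. Set against the smooth muscle markers, the same difference was 3.17 and 3.06 in the control and 3.20 and 3.24 in the tamoxifen libraries. Set against the fibroblast markers, the difference was 4.79 and 5.41 in the control and 2.27 and 3.09 in the tamoxifen libraries. Which cells the Pdgfrb reads came from was not tested. Of the pericyte markers 5 were called higher and none lower, with a median log2 fold change of 0.91. The most abundant of them, Rgs5 and Vtn, had log2 fold changes of 0.01 (limma adjusted p = 0.985) and 0.36 (limma adjusted p = 0.468). The count of 5 was unstable and changed with every library left out, each time in the direction of the count over all tested genes. It was lowest with either tamoxifen library left out. Of 7 smooth muscle markers 2 were called higher and 1 lower, shares near those of all tested genes, with a median of 0.43. Their sum was 19031 and 20718 in the control and 9769 and 10481 in the tamoxifen libraries. The lower one, Smtn, with 16572 and 15722.5 normalized counts in the control and 4515 and 2976 in the tamoxifen libraries, was the most abundant, and the next most abundant, Myl9, had a log2 fold change of 0.43 (adjusted p = 0.320). The counts of smooth muscle markers fell to 1 with either tamoxifen library left out.

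Pdgfra rose together with markers of fibroblasts and of oligodendrocyte precursors. All 9 fibroblast markers were called higher, with a median log2 fold change of 3.71 beside 3.65 for Pdgfra, and their sum was 2312 and 3298 normalized counts in control libraries and 68407 and 59303 in tamoxifen libraries. The most abundant, Col1a1 and Col1a2, had log2 fold changes of 5.95 and 4.29, and Dpt had no read in either control library. The log2 level of Pdgfra minus the median of the fibroblast markers was 0.98 and 0.68 in the control and 1.39 and 1.11 in the tamoxifen libraries. For Pdgfc the same difference was -3.37 and -3.32 in the control and -1.06 and -1.36 in the tamoxifen libraries. Of the 12 oligodendrocyte precursor markers measured, 10 were called higher and 1, Gpr17, lower, with a median of 3.22. Their sum was 6014 and 7884 normalized counts in the control and 29878 and 66466 in the tamoxifen libraries, led by Ptprz1 and Cspg5 with log2 fold changes of 3.79 and 3.63. The 2 tamoxifen libraries differed 2.22-fold in this sum and lay close together in Pdgfra. Most of the sum was Ptprz1 (14320 and 38626 normalized counts in the tamoxifen libraries) and Cspg5 (5111 and 11825). The other markers differed unevenly between these libraries. Olig1 had 381 and 917 and Tnr 229 and 505, whereas Vcan had 5470 and 6518 and Sox10 197 and 280. Which cells the Pdgfra reads came from was not tested. With either tamoxifen library left out, fewer of these markers and fewer of the fibroblast markers were called. Platelets store PDGF, and all 8 platelet and megakaryocyte markers measured were called higher, although none was called with either tamoxifen library left out. Their sum was 409.6 and 722 normalized counts in the control and 3595 and 2786 in the tamoxifen libraries, with log2 fold changes of 1.54 for Itga2b and 4.95 for Ppbp.

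**Figure D5:**
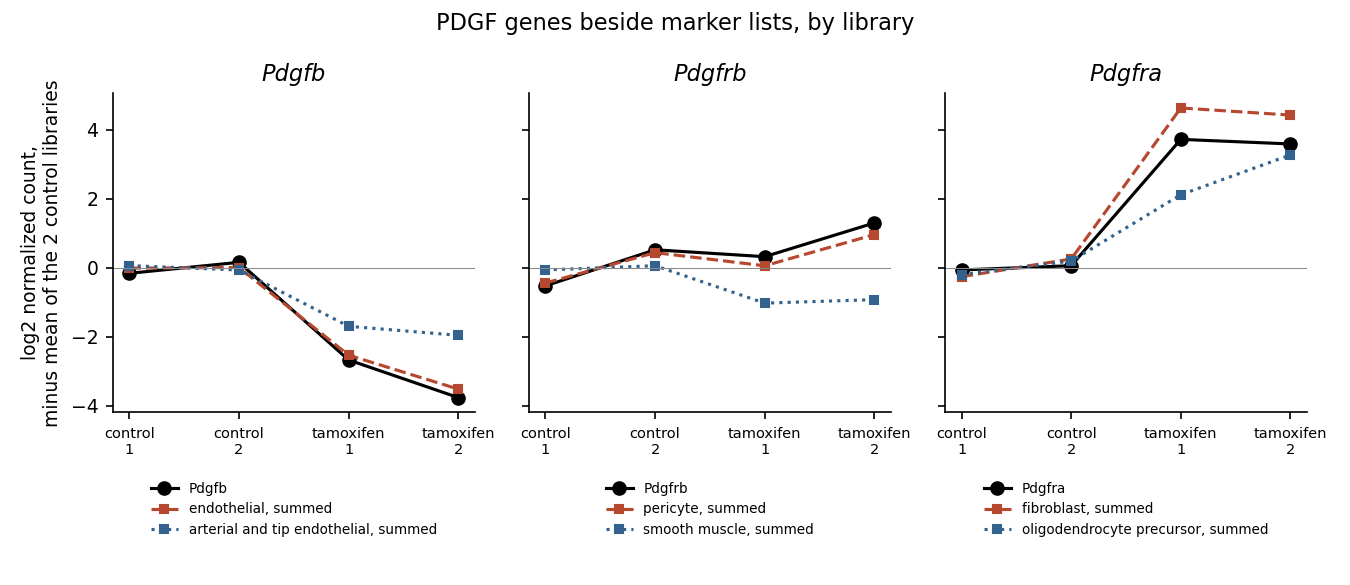
Log2 normalized counts of Pdgfb, Pdgfrb and Pdgfra (black) and of the summed markers of 2 cell types each, in the 4 libraries, after subtracting the mean of the 2 control libraries. Pdgfb runs beside the endothelial sum, Pdgfrb beside the pericyte sum, above the smooth muscle sum in the tamoxifen libraries, and Pdgfra between the fibroblast and oligodendrocyte precursor sums. In the control libraries most of the smooth muscle sum is a single gene, Smtn, which was called lower.

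For each member, the genes with the most similar profile were found among 13667 genes averaging 100 normalized counts or more, by the Euclidean distance of mean-centred log2 levels over the 4 libraries. Profiles over 4 libraries are short, and the likeness is a description. Pdgfb was nearest to Ly6a, a gene known from brain endothelium (distance 0.0703), and to St6galnac2 (0.128). Pdgfd was nearest to Fzd6, a Wnt receptor (0.0452), and Gbp4 (0.0786). Pdgfc was nearest to Gfpt2 (0.0394) and Parpbp (0.0660), and Pdgfra to Xrcc5 (0.0355) and Pnma2 (0.0638). Pdgfrb was nearest to Adap2 (0.0654) and to Acta2, the smooth muscle actin gene (0.129), which had 422 and 939 normalized counts in the control and 745 and 1428 in the tamoxifen libraries. Pdgfa was nearest to Sh3kbp1 (0.0195) and Uqcrfs1 (0.0366). Of all these nearest genes, only Acta2 belongs to a marker list used here.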

How the data were processed

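RNA-Seq of sorted brain cells was analysed in 2 control and 2 tamoxifen libraries, grouped by the treatment in the labels. The age, dose, day and pooling come from the study's methods. The columns of the table carry C or A and a number. The C columns were taken as the control and the A columns as the tamoxifen libraries, matched by number, although the labels give no A. The authors aligned stranded reads to GRCm39 with STAR 2.7.10a, counted them per gene, dropped low-count genes and used DESeq2 1.36.0 for normalization. The deposited signal of a gene is its read count divided by one factor per library, and 100% of the values were whole reads within 0.01. The annotation release, strand setting and low-count limit are not given in the sources used here.

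Genes with a mean of at least 10 were tested with limma 3.58.1 in R 4.3.3 (lmFit, eBayes with a variance trend) on log2(normalized count + 1), which understates folds of low genes, with BH adjustment. Single genes were judged by the adjusted p and calls by the study's cut-offs of 0.05 and 1. The script was tested on simulated data. Alternatives included a pseudocount of 0.5 or 5, no filter or a mean of 100, equal totals, quantile normalization, no trend, a replicate block, tests of the recovered reads by edgeR 4.0.16 and DESeq2 1.42.0, omission of each library in turn, and the adjusted p alone. Loci and lengths came from GENCODE and promoters from RefSeq. A count of at most 3 reads was taken as the floor. The members and gene lists were chosen with earlier results of these data known, and no list was tested as a set. Named genes are the members, Mgp, up to 2 called genes each way with a mean of at least 100 from each pathway list, the 2 most abundant markers of each cell type, and the 2 nearest profiles of each member. One gene that this rule names is not reported here. Replicates of a group differed by more than sampling noise, with a chi-square per degree of freedom of 25.5 in the control and 70.1 in the tamoxifen group.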

Additional observations from a re-analysis of the deposited data

How the results depend on the processing

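Of all tested genes, 9151 were called (5867 higher, 3284 lower), against 5934 with a filter at a mean of 100, 9241 with edgeR, 8739 with DESeq2, and 4147 to 9700 with a library left out, lowest without the second and next lowest, 5024, without the first tamoxifen library. The share of calls that were higher was 64.1%, 79.7% with equal totals (7206 higher, 1838 lower) and 47.3% after quantile normalization (4738 higher, 5275 lower). Members called numbered 4, and 5 with equal totals, after quantile normalization and without the second control library. Pathway genes called numbered 22, 38 by the adjusted p alone, and 11 to 23 with a library left out, and marker genes 111, and 65 to 117 with a library left out. With equal totals Pdgfa reached 0.99, Pdgfrb 1.28 and Mgp 0.079, and after quantile normalization Pdgfrb reached 1.29 and Mgp -0.64 (adjusted p = 0.0126). The log2 fold change of Pdgfrb ran from 0.29 to 1.33 with a library left out. The cause of these shifts was not tested. Leaving out a library leaves one in that group, assumed to vary like the other group. The ratios within libraries kept their direction under every pseudocount and left-out library.

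The replicate numbers were shared but did not pair the libraries, since deviations of the same-numbered libraries correlated at 0.025 over genes. With the number as a replicate block, 9525 genes were called, Pdgfrb kept 0.81 with an adjusted p of 0.000417, and 4 members were called. That fit has 1 residual degree of freedom. Depth limits the control value of Pdgfc, which rests on 9 and 14 reads.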

Other observations

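Other marker lists of cells that are not endothelial were also higher in the tamoxifen libraries, with no PDGF gene tied to them by a test. All 9 astrocyte markers were called higher, with a median log2 fold change of 2.87, and their most abundant genes Slc1a2 and Slc1a3 had log2 fold changes of 2.87 and 3.73. Without the first or the second tamoxifen library, 5 and 2 of them were called. Of 9 neuron markers 7 were called higher and none lower (median 3.24, Map2 3.24, Tubb3 4.95). Of 11 microglia and macrophage markers 8 were called higher and none lower (median 1.43), although Csf1r had 0.77 and Cx3cr1 0.10, and only 1 was called with either tamoxifen library left out. All 9 neutrophil markers, led by S100a9 and Ngp with log2 fold changes of 8.58 and 8.61, and all 11 pluripotency markers, led by Tdgf1 and Nanog with 8.85 and 9.50, were called higher.

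Pdgfra is also a known marker of primitive endoderm, the early embryonic tissue that lines the yolk sac. Of 10 primitive endoderm markers 8 were called higher and 2 lower, with a median log2 fold change of 5.18, or 4.37 with the 5 genes that had at most 3 reads in each control library set to their lower bound. The most abundant, Dab2 and Lama1, had log2 fold changes of -1.34 and 3.56. The log2 level of Pdgfra minus the median of these markers was 4.88 and 5.15 in the control and 1.74 and 1.96 in the tamoxifen libraries. With either tamoxifen library left out, 6 of these markers were called.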
